A study of Mus musculus with 3 samples.

Results

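The genes examined were the 10 main mouse genes of MHC class I antigen presentation: the heavy chains H2-K1, H2-D1 and H2-T23, the light chain B2m, the peptide transporter subunits Tap1 and Tap2, the loading factor Tapbp, the immunoproteasome subunits Psmb8 and Psmb9, and the regulator Nlrc5. They were chosen by name from the 31053 genes of the raw count tables, and all 10 were present there. Each was followed in 5650 single cells from 3 neuroblastomas, 1 per mouse, taken at 62 days (tumor 1), 79 days (tumor 2) and 63 days (tumor 3). Every mouse was heterozygous for TH-MYCN, a transgene in which the tyrosine hydroxylase promoter drives MYCN in cells of the sympathetic neural crest lineage. All 3 tumors carried it, none was treated, and normal tissue was not analysed here. Kept cells were those whose barcodes the authors had retained in their normalized tables, and 1 library was made per tumor. The tumors had been cut and digested with enzymes, and the suspension was loaded without a sort, so that tumor cells, leukocytes and stromal cells of 1 mouse were read in 1 library. The question addressed was how low tumor cells lay for these genes against the immune and stromal cells around them.

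MHC class I molecules carry short peptides from inside the cell to its surface, where cytotoxic T cells inspect them. The proteasome cuts proteins into peptides, and its interferon-inducible subunits Psmb8 and Psmb9 can take the place of constitutive ones. Tap1 and Tap2 form the pump that brings the peptides into the endoplasmic reticulum, tapasin (Tapbp) holds the empty class I molecule beside the pump, and the loaded heavy chain leaves with beta-2-microglobulin (B2m). Interferon and NF-kappaB signals raise the transcription of these genes, and Nlrc5 is a transactivator brought to their promoters by factors bound at a conserved module of SXY boxes. Neuroblastoma is known as a tumor with little surface MHC class I.

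Promoter windows of 300 bases, from 250 bases before to 50 after an annotated start, were read from RefSeq on GRCm38.p6 for 8 of the 10 genes. Tap2 and Nlrc5 had none in the table used. The sequences below are shown because they carry the letters through which interferon, NF-kappaB and SXY-binding factors are known to act on class I genes. Capitals mark matches to AANNGAAA (an interferon regulatory factor element), GGGNNTTCC (an NF-kappaB-type site), TGACG (the core of a cyclic AMP response element, as in the X2 box) and CCAAT (the Y box), each searched on both strands, so that some appear as their reverse complement. The stretch before the B2m start lies at chr2:122147437-122147685 on the plus strand and holds an AANNGAAA match, a TGACG and a CCAAT match:
B2m: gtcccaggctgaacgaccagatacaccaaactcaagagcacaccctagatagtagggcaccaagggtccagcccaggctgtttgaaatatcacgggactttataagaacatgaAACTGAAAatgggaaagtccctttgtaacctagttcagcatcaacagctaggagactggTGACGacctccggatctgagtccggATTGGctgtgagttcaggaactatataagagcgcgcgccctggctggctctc
The stretch before the H2-K1 start lies at chr17:34000349-34000597 on the minus strand and holds all 4 motifs:
H2-K1: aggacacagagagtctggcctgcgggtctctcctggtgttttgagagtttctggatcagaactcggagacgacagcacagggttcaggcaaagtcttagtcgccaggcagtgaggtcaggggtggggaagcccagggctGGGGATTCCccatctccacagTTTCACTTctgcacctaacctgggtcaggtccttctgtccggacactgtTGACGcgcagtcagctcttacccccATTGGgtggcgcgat
Within it, the 30 bases at chr17:34000429-34000458 hold the NF-kappaB-type site and the interferon element side by side, and H2-D1 holds the matching block at chr17:35262923-35262952 on the plus strand, before its RefSeq start but inside the longer GENCODE gene model:
H2-K1 block: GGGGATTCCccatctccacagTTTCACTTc
H2-D1 block: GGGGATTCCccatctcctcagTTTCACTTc
The 2 blocks were identical at 29 of 30 bases. Of the 8 promoters, 4 held AANNGAAA (H2-K1, H2-D1, B2m and H2-T23), 2 held GGGNNTTCC (H2-K1 and H2-D1), 5 held TGACG and 7 held CCAAT. Over 32851 promoter windows of the same length, the shares were 23.9%, 5.82%, 20.8% and 37.4%. Psmb8 held none of these letters in its window. These matches describe sequence only, and binding was not measured.

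B2m lay on chromosome 2 at 122147686 to 122153083 (GENCODE on GRCm38), and 8 of the genes lay on chromosome 17. Tap1 (34187553 to 34197225), Tap2 (34203527 to 34216321), Psmb8 (34197721 to 34201454) and Psmb9 (34181987 to 34187764) stood next to each other, Psmb9 on the minus strand and the rest on the plus strand, and Tap1 and Psmb9 overlapped at their starts. H2-K1 lay at 33996017 to 34000347 and Tapbp at 33915899 to 33929292 on the same chromosome, H2-D1 at 35262730 to 35267499 and H2-T23 at 36029773 to 36032855. Nlrc5 lay on chromosome 8 at 94434356 to 94527272. The assay counted tags near transcript ends, so the last 500 bases of each transcript were searched for stretches of 60 bases shared with other genes. For 8 genes every stretch was unique, for H2-D1 95% and for H2-T23 69.8%, so that H2-T23 counts are uncertain against its near copies such as H2-Q4 and H2-Bl.

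Cells were grouped into 21 clusters without the 73 class I, pathway and PRC2 genes described here, and clusters were named "like" a cell type from markers. Tumor-like cells (with markers such as Hand2, Th, Ddc, Stmn2 and Chga) numbered 356 in tumor 1, 848 in tumor 2 and 2004 in tumor 3. Immune classes were macrophage-like (642, 114 and 185 cells), neutrophil-like (236, 55 and 22), T cell-like (146, 46 and 69), B cell-like (204, 15 and 26), plasmacytoid dendritic-like (90, 4 and 23) and NK cell-like cells (33, 7 and 8). Stromal classes were endothelial-like cells (44, 19 and 33), cells like cancer-associated fibroblasts (CAF-like; 48, 9 and 30) and mesothelial-like cells (16, 4 and 6), beside 27 erythroid-like cells, and 281 cells of clusters with markers of several types stayed unnamed. Kept cells had a median of 4282.5 unique molecular identifiers (UMIs) in tumor 1, 1594 in tumor 2 and 1816 in tumor 3. Any 2 tumors shared at most 3 cell barcodes.

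Some of the tumor-like cells of tumor 1 went against their label. Tumor-like cells formed 5 clusters, and in 1 of them (cluster 6) the 44 cells from tumor 1 held 312 counts per 1000000 UMIs (CPM, here before scaling) of the 7 tumor markers, against 1741 to 2472 in the other 4 clusters of that tumor. The same 44 cells held 5266 CPM of 15 leukocyte-restricted genes such as Ptprc and Laptm5, and 5110 CPM of the 10 class I genes, with a median of 627 UMIs per cell. They made up 164 of the 461 class I UMIs counted in tumor-like cells of tumor 1. In tumors 2 and 3, cluster 6 held 140 and 98.3 CPM of the class I genes and the tumor markers at 1767 and 1775. The main results on tumor-like cells are therefore also given without cluster 6, a choice made after the values were seen. In the other direction, the 7 tumor markers in macrophage-like cells stood at a median of 1.92% of their level in tumor-like cells in tumor 1, 44.8% in tumor 2 and 37.8% in tumor 3. Their summed level was 28.7, 999.7 and 1549 CPM before scaling in T cell-like cells and 51.6, 1278 and 1336 CPM in B cell-like cells, where the tumor-like clusters of tumors 2 and 3 held 1613 to 2249 CPM. Neutrophil-like cells held 38.2, 780.2 and 1030.3 CPM. Among the macrophage-like clusters of tumors 2 and 3, cluster 11 held the most, at 1370 and 1665 CPM. Endothelial-like cells held 209, 428.5 and 714 CPM. In tumor 3, CAF-like cells held 561 CPM and plasmacytoid dendritic-like cells 916, against 30.4 and 15.3 in tumor 1. The immune and stromal levels of tumors 2 and 3 given below come from sums with this much tumor marker RNA. The part of RNA from other cells in the levels given here was not tested.

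For the comparisons, the UMIs of all cells of 1 class in 1 tumor were added up wherever the class had at least 10 cells, which gave 26 sums of 23655 to 6086269 UMIs: 3 tumor-like, 15 immune, 6 stromal and 2 erythroid-like. Unless given as before scaling, levels are CPM of a sum after scaling with TMM factors. The replicates were the 3 tumors, and intervals on shares of cells cover counting error only.

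The classical heavy chains H2-K1 and H2-D1, which present peptides to CD8 T cells, were lower in tumor-like cells than in any immune or stromal class of the same tumor. H2-K1 stood at 168 CPM in tumor-like cells of tumor 1, 36.5 in tumor 2 and 18.4 in tumor 3, against 1410, 825 and 853 CPM in macrophage-like cells and 834, 688 and 188 in endothelial-like cells. The tumor-like level was below each of the 15 immune and 6 stromal sums of the same tumor, by 2.52-fold to 46.3-fold. H2-D1 stood at 184, 58.3 and 45.3 CPM in tumor-like cells, at 3061, 1341 and 1522 in macrophage-like cells and at 1305, 841 and 751 in endothelial-like cells. It too was below all 21 sums of the same tumor. Without cluster 6, H2-K1 in tumor-like cells of tumor 1 fell from 189 to 105 CPM before scaling, and H2-D1 from 206 to 143.

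The order of classes by mean H2-K1 level ran from NK cell-like (2109 CPM, 1 sum) and mesothelial-like (2087 CPM, 1 sum) through T cell-like (1385), plasmacytoid dendritic-like (1216), macrophage-like (1029), B cell-like (603), endothelial-like (570), neutrophil-like (491) and CAF-like cells (288) to tumor-like cells (74.4). From the mesothelial-like sum down, the ranges over tumors of neighbors in this order overlapped, that of the CAF-like cells (151 to 424 CPM) with that of the tumor-like cells (18.4 to 168) included. This overlap came from tumor 1 against tumor 3, since tumor 1 had the highest H2-K1 level in each immune, stromal and tumor-like class with more than 1 sum. Fewer cells with the RNA and less RNA per cell cannot be told apart in such sums.

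H2-T23, which encodes the nonclassical heavy chain Qa-1 that engages inhibitory receptors on NK cells, stood at 23, 2.73 and 6.06 CPM in tumor-like cells. Without cluster 6 the level of tumor 1 fell from 25.8 to 15.3 CPM before scaling, from 16 to 9 UMIs. Macrophage-like cells held 170, 32.4 and 60.3 CPM and T cell-like cells 295, 52.3 and 17.3. The tumor-like level was below 14 of 15 immune and 6 of 6 stromal sums of the same tumor, the exception being the B cell-like sum of tumor 2, at 0 in 15 cells.

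B2m, the light chain that every classical class I molecule needs to reach the surface, stood at 181, 25.1 and 35.9 CPM in tumor-like cells. Macrophage-like cells held 3406, 1229 and 1482 CPM, T cell-like cells 2297, 512 and 130, and endothelial-like cells 1083, 679 and 353. Tumor-like cells were below all 21 immune and stromal sums of the same tumor, by 2.53-fold to 49.0-fold. Their highest level, in tumor 1, was above the T cell-like level of tumor 3 and the B cell-like level of tumor 3 (90.7 CPM), so that the ranges over all tumors overlapped. Those T cell-like and B cell-like sums of tumor 3 held 1549 and 1336 CPM of the tumor markers before scaling, so this overlap is uncertain as one with T and B cells.

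**Figure D1:**
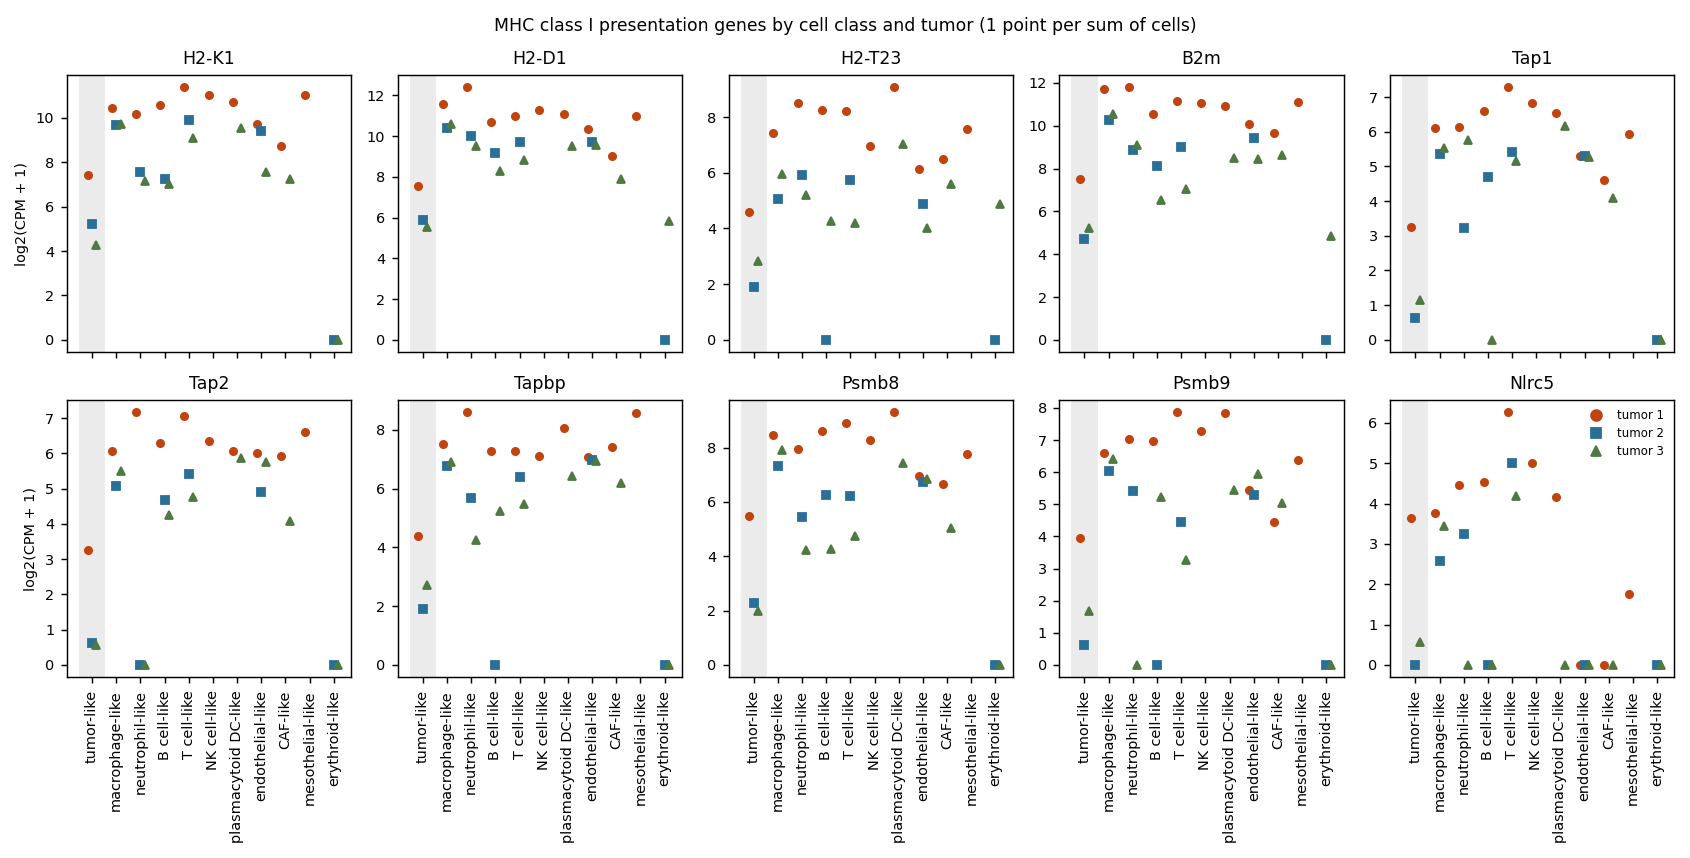
Level of each of the 10 class I genes, as log2(CPM + 1), in each cell class, with 1 point per tumor and class and tumor-like cells on the grey band. Tumor-like points lie below the immune and stromal points of the same tumor for H2-K1, H2-D1, B2m and Psmb8, while Nlrc5 is near 0 in endothelial-like, CAF-like and mesothelial-like cells too.

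The transporter genes were counted in few tumor-like cells. Tap1 was seen as 6, 1 and 5 UMIs in the tumor-like sums of tumors 1, 2 and 3, which is 8.63, 0.545 and 1.21 CPM. Macrophage-like cells held 68.6, 39.9 and 45.7 CPM and endothelial-like cells 38.4, 38.2 and 37.5. No macrophage-like or endothelial-like level reached down to the tumor-like range, and how many of all genes show such a gap was not counted. Tap2 was seen as 6, 1 and 2 UMIs, or 8.63, 0.545 and 0.485 CPM, against 66.1, 32.4 and 44.0 CPM in macrophage-like cells and 63.3, 28.7 and 52.6 in endothelial-like cells. Tap1 and Tap2 were below 14 and 13 of the 15 immune sums of the same tumor and below all 6 stromal sums. The exceptions were sums that held no UMI of the gene, such as Tap2 in neutrophil-like cells of tumors 2 and 3.

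Tapbp, the tapasin gene, stood at 20.1, 2.73 and 5.58 CPM in tumor-like cells against 184, 107 and 117 in macrophage-like and 133, 124 and 120 in endothelial-like cells. Its level in the mesothelial-like sum of tumor 1 was 381 CPM, and the highest immune level was 387 CPM in neutrophil-like cells of tumor 1. That neutrophil-like sum had the lowest TMM factor, 0.41, and held 157 CPM before scaling. On that scale the mesothelial-like sum held 298 CPM and plasmacytoid dendritic-like cells of tumor 1 held 240. The tumor-like level was below 14 of 15 immune and all 6 stromal sums of the same tumor.

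Psmb8 and Psmb9, the catalytic immunoproteasome subunits that stand in for Psmb5 and Psmb6, were low in tumor-like cells of tumors 2 and 3 above all. Psmb8 stood at 43.2, 3.82 and 2.91 CPM in tumor-like cells against 350, 157 and 240 in macrophage-like and 122, 105 and 113 in endothelial-like cells, below all 21 sums of the same tumor. Psmb9 stood at 14.4, 0.545 and 2.18 CPM against 96.0, 64.8 and 84.8 in macrophage-like and 43.0, 38.2 and 60.1 in endothelial-like cells, below 13 of 15 immune and all 6 stromal sums. Without cluster 6, Psmb9 in tumor 1 fell from 16.1 to 10.2 CPM before scaling, from 10 to 6 UMIs. For both genes the 3 tumor-like values lay below all 3 macrophage-like and all 3 endothelial-like values. The share of all genes with such a gap across tumors was not counted.

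A ratio within a sum needs no scaling between sums, and it set each inducible subunit against its constitutive partner. Psmb8 made up 14.8%, 1.05% and 0.730% of the Psmb8 and Psmb5 UMIs in tumor-like cells, 61.0%, 35.0% and 47.7% in macrophage-like cells and 30.5%, 36.7% and 32.6% in endothelial-like cells. Psmb9 made up 5.05%, 0.161% and 0.487% of the Psmb9 and Psmb6 UMIs in tumor-like cells, 27.5%, 20.5% and 19.3% in macrophage-like cells and 14.7%, 17.4% and 18.6% in endothelial-like cells. The tumor-like shares of both lay below the macrophage-like and endothelial-like shares in every tumor. Without cluster 6 the tumor-like shares were 12.8%, 0.694% and 0.709% for Psmb8 and 3.13%, 0.186% and 0.507% for Psmb9. Psmb10, the inducible partner of Psmb7, made up 13%, 18.9% and 16.2% in tumor-like cells against 52.4%, 34.5% and 40.8% in macrophage-like cells, and was no lower in tumors 2 and 3 than in tumor 1. Other immune sums of tumor 2 were below or near the tumor-like share of Psmb10, with 13% in neutrophil-like, 12.5% in B cell-like and 20.8% in T cell-like cells, as were neutrophil-like (18.2%), plasmacytoid dendritic-like (17.6%) and T cell-like cells (20.6%) of tumor 3, from 1 to 7 Psmb10 UMIs each. Psmb9 was likewise at 0 in the B cell-like sum of tumor 2 and the neutrophil-like sum of tumor 3, which held 7 and 19 UMIs of Psmb6. In tumor-like cells Psmb10 was counted 93 and 196 times in tumors 2 and 3, where Psmb8 was counted 7 and 12 times. No test was made between the subunits.

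**Figure D2:**
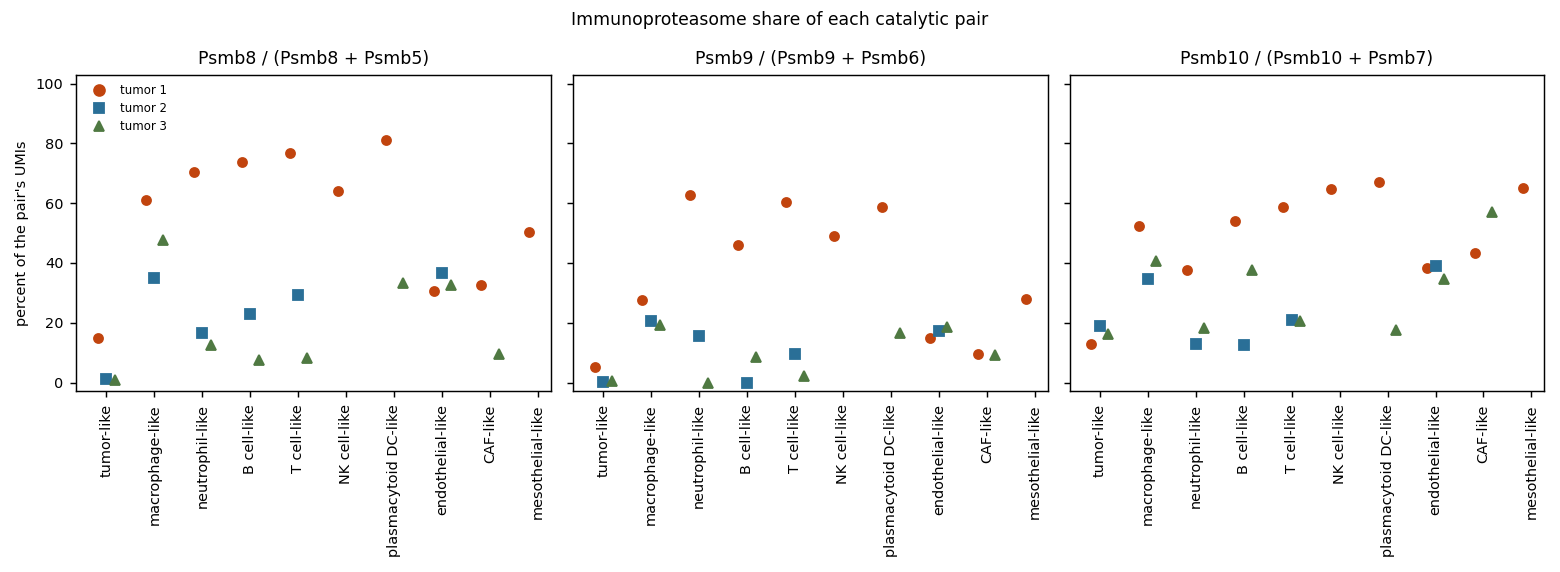
Share of each inducible proteasome subunit in the UMIs of itself and its constitutive partner, in percent, by cell class, with 1 point per tumor. In tumors 2 and 3 the tumor-like shares of Psmb8 and Psmb9 are at most 1.05%, while that of Psmb10 is 18.9% and 16.2%.

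Nlrc5, the transactivator of class I genes, was the exception among the 10 in where it was low. Tumor-like cells held 8, 0 and 2 UMIs of it (11.5, 0 and 0.485 CPM), and 7 of the 8 in tumor 1 came from the 44 cells of cluster 6, which left 1. Macrophage-like cells held 12.5, 4.98 and 9.79 CPM and T cell-like cells the most, at 75.9, 31.4 and 17.3 CPM. Over all sums of a kind, Nlrc5 was counted 10 times in 6053785 UMIs of tumor-like cells (1.65 CPM), 154 times in 11232632 UMIs of immune cells (13.7 CPM) and 1 time in 2302179 UMIs of stromal cells (0.434 CPM). The stromal count was under the 1.30 CPM that 3 counts would give at that depth. In stromal cells Nlrc5 was thus not detectable above that limit at this depth, while the other 9 genes were above the tumor-like level there. Without cluster 6, tumor-like cells of tumors 1, 2 and 3 held 1, 0 and 2 UMIs of Nlrc5, or 1.70, 0 and 0.551 CPM before scaling. Counts this low do not order tumor-like and stromal cells.

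Against the mean of the 6 immune classes, all 10 genes were lower in tumor-like cells by edgeR's quasi-likelihood test with Benjamini-Hochberg adjustment, where 12.7% of the 10998 genes tested were called lower and 17.1% higher. All 10 passed the filter on low counts. A gene that is low in tumor-like cells can pass that filter through the classes where it is high. Their median log2 fold change was -4.01, against 0.14 over all genes tested. The largest fitted differences were those of Tap2, at -4.85 (SE 1.01, adjusted p = 0.00272, edgeR), and Tap1, at -4.75 (SE 0.81, adjusted p = 0.00146). Their tumor-like sums held only 6, 1 and 2 UMIs of Tap2 and 6, 1 and 5 of Tap1, so the sizes of these differences are uncertain. B2m was lower by 16.5-fold (log2 fold change -4.04, SE 1.04, adjusted p = 0.00786, edgeR) and H2-K1 by 14.1-fold (-3.81, SE 0.95, adjusted p = 0.00698). The smallest was Nlrc5, at -2.76 (SE 0.96, adjusted p = 0.0370, edgeR), and the other 5 lay between -3.92 and -4.45.

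Without cluster 6, all 10 were again called lower, with H2-K1 at -4.42, B2m at -4.37 and Nlrc5 at -4.75, the last moved from -2.76. The Nlrc5 call did not hold without tumor 2 (adjusted p = 0.170, edgeR) or without tumor 3 (0.172), nor in DESeq2 (0.181), and that of Psmb8 was lost without tumor 2 (0.0574). Without tumor 1, Tap1, Tap2, Psmb9 and Nlrc5 fell under the count filter, and the 6 genes left were all called lower. With the authors' corrected counts in place of raw UMIs, 5 of 9 genes tested were called, with H2-D1 at adjusted p = 0.0744 (edgeR), Psmb8 at 0.151, H2-K1 at 0.163 and B2m at 0.176. DESeq2's size factors moved the median of all genes from 0.14 to -0.53, with 145 genes called higher and 1995 lower where edgeR called 1876 and 1400, and the 9 class I genes it called were lower under both.

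The class I genes were also set against single classes, and the counts of different classes were not tested against each other. All 10 were lower than in T cell-like cells (6.31% of all genes were), and 9 were lower than in macrophage-like cells (16.9%) and than in plasmacytoid dendritic-like cells (10.2%), in both cases without Nlrc5. In the same test 7 were lower than in neutrophil-like cells (17.2%), with H2-K1, Psmb8 and Nlrc5 not called. In B cell-like cells the count was 6 (6.75%), with B2m, H2-K1, Psmb8 and Nlrc5 not called, and it was 7 for the 1 NK cell-like sum (5.68%), which was assumed to vary like the other classes. Over these and the 3 stromal classes, 66 of 90 pairs of gene and class were called lower, and 81 without cluster 6. With the tumor as a block 82 were called, all but Nlrc5 in 7 classes and Psmb9 in CAF-like cells. Leaving out 1 tumor cut the count to 36 of 42 pairs tested without tumor 1, 25 of 90 without tumor 2 and 16 of 90 without tumor 3. The share of pairs called over all genes was not counted for these totals, so their changes are not read as particular to the class I genes.

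Against the mean of the 3 stromal classes, 9 of the 10 genes were lower in tumor-like cells by edgeR's quasi-likelihood test, where 17.4% of all genes were called lower and 8.13% higher. The median log2 fold change of the 10 was -3.30 against -0.14 over all genes. Tap2 was lower at -4.77 (SE 1.05, adjusted p = 0.00213, edgeR), Tapbp at -4.41 (SE 0.91, adjusted p = 0.00120) and Tap1 at -3.82 (SE 0.84, adjusted p = 0.00212). B2m was lower by 12.3-fold (adjusted p = 0.0150, edgeR), H2-K1 by 9.63-fold (0.0168), H2-D1 by 9.56-fold (0.00458) and Psmb8 by 8.03-fold (0.0384). Nlrc5 was not called (adjusted p = 0.303), and no fold is given for it because 5 of the 6 stromal sums held no UMI. Without cluster 6 the same count of 9 was called.

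These stromal calls rested on 6 sums. Without tumor 1, the 6 genes that passed the count filter were all called lower. Without tumor 2, only Tap1, Tap2 and Tapbp of the 10 were called lower, with H2-D1 at adjusted p = 0.0511 (edgeR), B2m at 0.106 and H2-K1 at 0.107. Without tumor 3, H2-D1, Tap1, Tap2 and Tapbp were called, with B2m at adjusted p = 0.0529 and H2-K1 at 0.0624. The direction was kept for all 9 without tumor 2 and without tumor 3. With the authors' corrected counts 2 of 9 were called. By class, 8 genes were lower than in the 1 mesothelial-like sum (16 cells of tumor 1, assumed to vary like the other classes, where 14% of all genes were), 7 than in endothelial-like cells (13.6%) and 3 than in CAF-like cells (15.8%), the last being Tap1, Tap2 and Tapbp. With the tumor as a block 8 were lower than in CAF-like cells, all but Nlrc5 and Psmb9, and the share of all genes called there with the block is not given. Of the 9 genes, the smallest ratio to the tumor-like level of the same tumor was that of Psmb9 in CAF-like cells of tumor 1, at 1.45-fold (20.8 against 14.4 CPM).

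**Figure D3:**
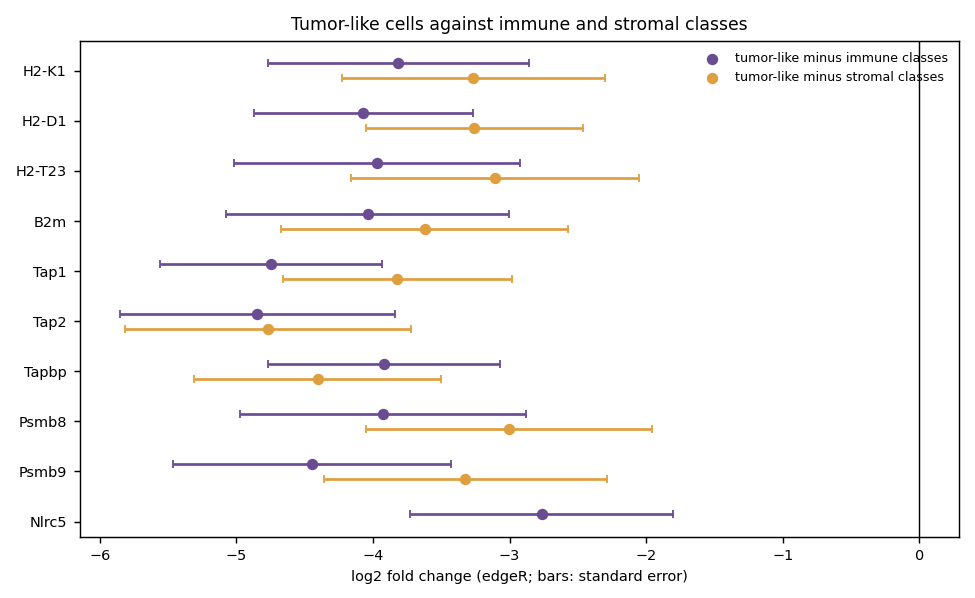
Log2 fold change of each class I gene in tumor-like cells against the mean of the immune classes and against the mean of the stromal classes, from edgeR, with bars for 1 standard error. All values drawn lie between -2.76 and -4.85, and Nlrc5 against stromal classes is not drawn because stromal cells held 1 UMI of it.

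Between immune and stromal classes only Nlrc5 was called higher in the immune classes (adjusted p = 0.00880, edgeR), where 3.38% of all genes were called higher and 13.7% lower. The fitted differences of the other 9 ran from -0.49 for Tapbp to 1.12 for Psmb9. With the tumor as a block, 826 of all 10998 genes tested were called higher in immune classes. Of the class I genes 6 were: H2-D1 (log2 fold change 0.85, adjusted p = 0.0149, edgeR), H2-T23 (1.06, 0.0156), Tap1 (1.07, 0.0285), Psmb9 (1.29, 0.0320), Psmb8 (1, 0.0455) and Nlrc5. H2-K1, B2m, Tap2 and Tapbp were not called with or without the block. These differences were under the size of those between tumor-like and other cells for each of the 9 genes.

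Tumor by tumor and without a model, 4 genes (B2m, H2-D1, H2-K1 and Psmb8) were lower in tumor-like cells than in every one of the 15 immune sums of the same tumor, where 1.3% of all tested genes were. Against stroma, 9 were lower than in every one of the 6 stromal sums, where 16.3% of all genes were. Over the 10 genes, tumor-like cells were lower in 139 of 150 pairs with an immune sum and in 54 of 60 pairs with a stromal sum, and the 6 stromal exceptions were all Nlrc5. Shares over all genes were not counted for these pairs, nor for genes said above to lie below most but not all immune sums.

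The level left in tumor-like cells was compared with that of the 15 leukocyte-restricted genes, chosen as genes of leukocytes. Some of these are markers of 1 immune class, such as S100a8, Cd79a and Cd3e, while the class I genes were counted in every immune class. The leukocyte values are therefore not a like-for-like floor for the class I genes. As a percent of the mean immune level of the same tumor, the 10 class I genes had a median of 9.04% in tumor 1 (6.57% to 38.4%), 4.22% in tumor 2 (0% to 7.60%) and 6.18% in tumor 3 (1.67% to 11.7%). The leukocyte-restricted genes had medians of 3.58% (0.192% to 19.2%), 0.584% (0.166% to 1.30%) and 2.19% (0.130% to 6.19%). In each tumor the class I median was above the leukocyte median, and both were highest in tumor 1. With the authors' corrected counts the order turned in tumor 1, at 24.4% for the class I genes and 25.3% for the leukocyte-restricted genes, and was kept in tumor 2 (0.829% and 0.0999%) and tumor 3 (3.82% and 1.20%). Without cluster 6 the class I medians were 5.56%, 3.06% and 6.34% and the leukocyte medians 2.06%, 0.624% and 2.18%, so that tumor 1 was no longer the highest. The ranges overlapped in all 3 tumors, and the highest class I value of tumor 1 was that of Nlrc5, with 7 of its 8 UMIs in cluster 6, and without that cluster it was 5.07%. In tumor 2, 9 of the 10 class I genes were above the highest leukocyte-restricted gene, and Nlrc5 at 0 was below all of them.

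**Figure D4:**
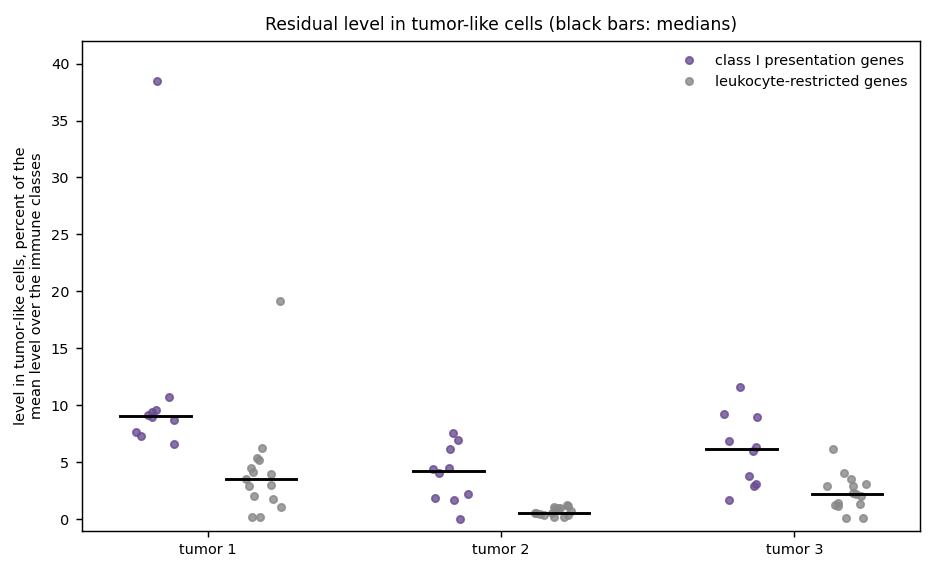
Level in tumor-like cells as a percent of the mean level over the immune classes of the same tumor, for the 10 class I genes and for 15 leukocyte-restricted genes, with 1 point per gene and black bars at the medians. The class I medians (9.04%, 4.22% and 6.18%) lie above the leukocyte medians (3.58%, 0.584% and 2.19%) and the 2 groups of points overlap.

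Single tumor-like cells differed in how much class I RNA they held, and tumor 1 stood apart. The 10 genes together made up 743 CPM before scaling in tumor-like cells of tumor 1, 147 in tumor 2 and 129 in tumor 3. Of the tumor-like cells, 36.8%, 80.8% and 79.3% held no UMI of any of the 10, at a median of 930, 1529 and 1820.5 UMIs per cell. In tumor 1, 69.4% of the tumor-like cells held at least 1 leukocyte UMI, against 21.1% and 32.4% in tumors 2 and 3. Among cells with no leukocyte UMI the class I level was 553, 136 and 121 CPM, so that tumor 1 stayed highest. Without cluster 6 the level was 505, 148 and 130 CPM, and 41.7%, 80.3% and 79.0% of the cells held no class I UMI.

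The level also varied among the 5 tumor-like clusters. In tumor 1 it ran from 180 CPM in cluster 4 through 330 in cluster 2, 1049 in cluster 0 and 1233 in cluster 1 to 5110 in cluster 6, and the leukocyte level rose from 241 through 432 and the 1328 and 1137 of clusters 0 and 1 to 5266. In tumor 2 it lay between 98.3 and 140 CPM in 4 clusters and at 255 in cluster 4, where the leukocyte level was the lowest of the 5, at 93.4. In tumor 3 it lay between 98.3 and 148 CPM in all 5. Clusters of 1 tumor are not replicates, and no test was made between them.

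To compare shares of cells across depths, each cell was thinned at random to 500 UMIs, and no cell of the classes given here was shallower. A UMI of any of the 10 genes was then found in 41.0% of tumor-like cells in tumor 1 (95% exact interval 35.9% to 46.3%), in 6.13% in tumor 2 (4.61% to 7.96%) and in 5.94% in tumor 3 (4.94% to 7.06%). Macrophage-like cells reached 93.3%, 65.8% and 71.4%, T cell-like cells 93.8%, 80.4% and 46.4% and endothelial-like cells 75.0%, 57.9% and 42.4%. In every tumor the tumor-like share was below each of these. Without cluster 6 the tumor-like shares were 33.3% (28.1% to 38.9%), 6.37% and 6.01%. Before thinning, the mean share over the 3 tumors was 34.4% in tumor-like and 91.9% in macrophage-like cells, and after it 17.7% and 76.8%. Of the 27 erythroid-like cells, 7.41% held a UMI after thinning (0.910% to 24.3%).

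As a measure of background, Ptprc, the pan-leukocyte gene, was found after thinning in 7.02%, 0.118% and 0.0998% of tumor-like cells, whose median depths before thinning were 930, 1529 and 1820.5 UMIs. It was found in 39.3%, 21.9% and 25.4% of macrophage-like cells, with median depths of 8404, 2231 and 2917 UMIs. B2m was found in 16.6%, 1.77% and 1.6% of tumor-like cells and in 68.7%, 28.9% and 36.8% of macrophage-like cells. The tumor-like B2m shares of tumors 2 and 3 were above those of Ptprc in the same cells. In those tumors the tumor markers in macrophage-like cells stood at a median of 44.8% and 37.8% of their tumor-like level. The source of the B2m UMIs in tumor-like cells was not tested. At least 3 of the 10 genes together were found in 18 of 3208 tumor-like cells (0.561%), all in tumor 1, where they were 5.06%, and in 29.8%, 8.77% and 11.9% of macrophage-like cells. Without cluster 6, 2 of 312 tumor-like cells of tumor 1 were left (0.641%, 95% exact interval 0.0777% to 2.30%), and Ptprc and B2m were found there in 2.88% and 10.9% of the cells.

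**Figure D5:**
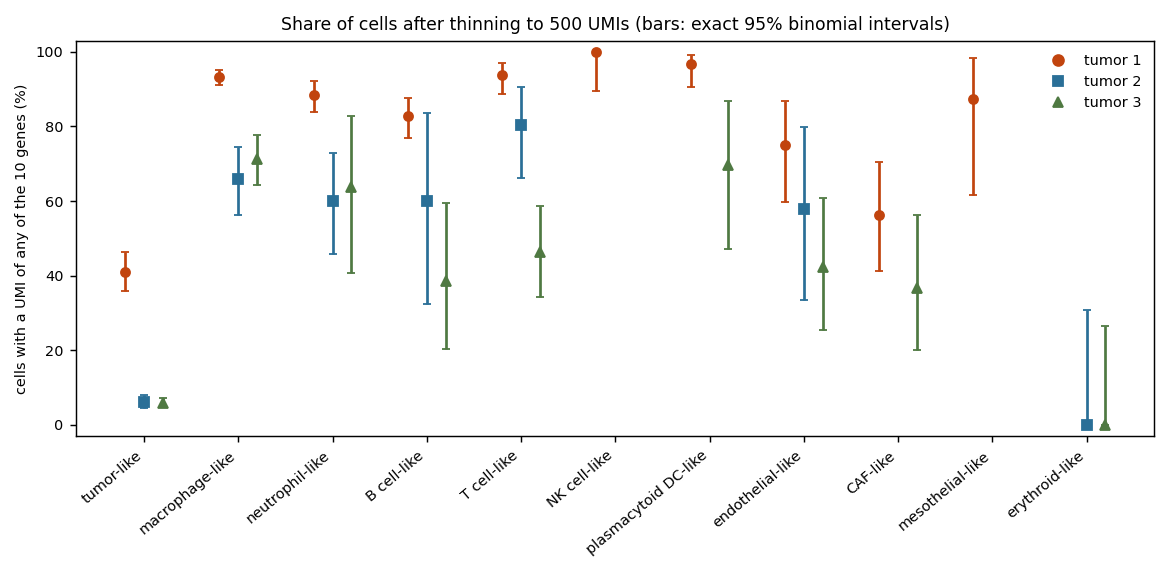
Share of cells with a UMI of any of the 10 class I genes after thinning each cell to 500 UMIs, in percent with 95% exact binomial intervals, by class and tumor. Tumor-like cells are at 41.0% in tumor 1 and at 6.13% and 5.94% in tumors 2 and 3, below macrophage-like, T cell-like and endothelial-like cells of the same tumor.

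Other genes of the pathway were read from lists chosen with earlier results known. For each list count of the main edgeR fit from here on, the shares over all genes tested are the same. They do not apply to counts from DESeq2 or to counts without cluster 6, for which no share over all genes is given. Against immune cells 12.7% were called lower and 17.1% higher, and against stromal cells 17.4% and 8.13%. Of 13 further class I and class I-like heavy chains, 12 were in the tables and 9 were tested, and 7 of these were lower in tumor-like than in immune cells (edgeR), with a median of -3.44. H2-M3, which presents formylated peptides, was at -4.52 (adjusted p = 0.00311, edgeR), H2-Q6 at -4.33 (0.00705), H2-Q4 at -3.97 (0.0178) and H2-T22, a ligand of gamma-delta T cells, at -3.87 (0.00533). Against stromal cells 4 of 9 were lower, led by the neonatal Fc receptor chain Fcgrt at -5.83 (adjusted p = 1.06e-05, edgeR), which binds antibody and not peptide, then H2-M3 at -3.87 (0.00323), the iron regulator Hfe at -3.81 (4.88e-04) and H2-T22 at -3.73 (0.00730). The H2-Q and H2-T genes are near copies of each other, and their counts are uncertain in that respect. Without cluster 6, 7 were lower against immune and 6 against stromal cells.

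Of 9 other genes for peptide supply and loading, 3 were lower against immune cells (median -1.07): the trimming peptidase Erap1 at -3.83 (adjusted p = 0.00576, edgeR), the tapasin-like editor Tapbpl at -2.72 (0.0104) and the proteasome activator subunit Psme2 at -1.81 (0.0454). Against stromal cells 6 were lower (median -1.6), with Erap1 at -4.31 (7.44e-04, edgeR), Tapbpl at -2.42 (0.0295), the disulfide isomerase Pdia3 at -2.37 (0.00333) and Psme2 at -2.03 (0.0443).

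The 14 constitutive subunits of the 20S proteasome had a median log2 fold change of 0.69 against immune and 0.52 against stromal cells. In each comparison 1 of the 14 was called higher, where 17.1% of all genes were called higher against immune and 8.13% against stromal cells, so the count was not above that of all genes. These were Psma5 at 0.91 (adjusted p = 0.0351, edgeR) against immune and Psmb7 at 1.15 (0.0388) against stromal cells, and DESeq2 called neither (0.177 and 0.175). The subunits with the highest levels, Psma7 and Psma3, were at 0.73 (adjusted p = 0.0919, edgeR) and 0.35 (0.484) against immune cells. With DESeq2's size factors the medians of the 14 were 0.17 and 0.05.

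Of 8 listed genes for SXY-binding factors 6 were tested, and edgeR called 0 against immune and 0 against stromal cells, with 1 of 6 at an unadjusted p under 0.05 in each. Over all genes, 12.7% were called lower and 17.1% higher against immune cells, and 17.4% and 8.13% against stromal cells. With 6 genes, a count of 0 does not set this list apart from all genes. The medians were -0.31 and 0.14, and the latter turned to -0.33 with DESeq2, which called 1 against immune and 0 against stromal cells. Creb1 was at -0.69 (adjusted p = 0.216, edgeR) against immune cells, which DESeq2 called lower at -1.25 (0.0431), and Rfxap, a subunit of the RFX complex, was at 0.79 (0.108, edgeR). Rfxap held 84.9, 81.8 and 73.2 CPM in tumor-like cells, while Rfx5 held 1, 2 and 7 UMIs there.

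Genes of interferon and NF-kappaB signaling were lower as well. Of 13 receptor, kinase and transcription factor genes, 11 were lower in tumor-like than in immune cells (median -2.89), with Irf1 at -4.20 (adjusted p = 0.00322, edgeR), the interferon gamma receptor chain Ifngr1 at -3.80 (0.00362) and the NF-kappaB subunit Nfkb1 at -3.31 (0.00455). Irf1 held 14.4, 0 and 1.94 CPM in tumor-like cells, 57.0, 15 and 32.6 in macrophage-like cells and 56.5, 57.3 and 45.1 in endothelial-like cells. Against stromal cells 9 of 13 were lower (median -2.32), with Ifnar2 at -3.57 (0.00191, edgeR), Irf1 at -3.44 (0.0101) and Ifngr1 at -3.17 (0.00945).

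Of the 7 genes of PRC2, the complex that places the repressive mark H3K27me3, the methyltransferase Ezh2 was higher in tumor-like cells, at 1.75 (adjusted p = 0.00333, edgeR) against immune and 1.86 (0.00594) against stromal cells. Its paralog Ezh1 was lower, at -2.82 (0.00245, edgeR) and -2.58 (0.00401). Ezh2 held 155, 131 and 163 CPM in tumor-like cells, above the 26.7, 57.3 and 81.5 CPM of macrophage-like and the 40.7, 28.7 and 60.1 CPM of endothelial-like cells. The other 5 were not called in either comparison. Of the 15 leukocyte-restricted genes, 11 were lower against immune cells (median -4.58) and 1, Fcer1g at -3.29 (0.0215, edgeR), against stromal cells (median -1.43), where 3 were lower without cluster 6.

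Across the 26 sums, the 10 class I genes had like patterns. Pearson's r of log2 levels between pairs of them ran from 0.469 to 0.966 with a median of 0.815 over 45 pairs, and r with the mean pattern from 0.662 for Nlrc5 to 0.964 for Psmb8. The sums of 1 tumor share a library and its depth, and these values are descriptions. The 10 genes outside the lists with the highest r to the mean pattern were Sp100 (0.943), Zfp36l1 (0.921), Elf1 (0.918), Fnbp1 (0.917), Akap13 (0.910), 9930111J21Rik2 (0.903), Elf4 (0.903), Stk10 (0.893), Zfp36l2 (0.891) and Clec2d (0.890). Sp100, a nuclear body component, held 24.5, 0.545 and 0.970 CPM in tumor-like cells. By Spearman's rho, 1 of these 10 (Elf4) was again among the top 10.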

How the data were processed

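The authors deposited, per tumor, raw UMI counts per gene and barcode (10x Chromium 3′ v3.1) and a normalized table of the barcodes they kept, after their own removal of doublets and ambient RNA. Per the labels, the submitters' processing notes name Cell Ranger 3.1.0, Seurat 3.1.5 and mm10. The deposited normalized values were the natural log of 1 plus a whole corrected count, adjusted for depth: over the 479 shallowest cells of tumor 1 they summed to 250% of the raw UMIs, over the 479 deepest to 21.9%. Raw counts of kept cells were therefore used, and corrected counts as an alternative.

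Cells were clustered with Seurat 5.3.0 (2000 variable genes, 30 dimensions, 20 neighbors, resolution 1). Clusters were named from at least 3 markers at a fold of at least 2, without further doublet removal. UMIs were summed per tumor and class (at least 10 cells) and fitted in R 4.3.3 with edgeR 4.0.16 (filterByExpr, TMM, quasi-likelihood test, Benjamini-Hochberg threshold 0.05) over all 26 sums, with contrasts of unweighted class means. DESeq2 1.42.0 was also used. The installed limma was 3.58.1, and no separate limma fit was made. The fit was also run on simulated sums, drawn without correlation between the sums of 1 tumor. That run cannot show how such correlation affects the calls, and its outcome is not used here. Sums of 1 tumor come from the same animal: deviations from class means correlated at a median of 0.23 within tumors (45 pairs, 0.0044 to 0.61) and -0.19 between tumors (90 pairs), and the block on the tumor is an alternative. The submitters' build is mm10, and GRCm38.p6 served for sequences and gene positions.

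The members and lists were chosen with earlier results of these data known. Named were all members, up to 4 called genes per list with the largest change (with fewer than 2 called, also the 2 with the highest level), and the 10 genes most like the members. Psmb10, Rfx5 and the levels of Sp100 were singled out after their values were seen. Some listed genes are not reported here.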

Additional observations from a re-analysis of the deposited data

How the results depend on the processing

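The direction of all 10 genes against immune classes was kept under every alternative in which they passed the count filter, and that of the 9 called against stromal classes too. Precision was limited by depth for Tap1, Tap2, Psmb9 and Nlrc5, which had at most 10 UMIs in any tumor-like sum, and by 6 stromal sums. Over 3 comparisons of 10 genes, 370 values under an alternative kept side and direction, 39 lost the call, 12 gained it and 5 reversed. The cause was not tested where no construction shows it.

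Against immune classes (10 members lower, 1400 genes lower and 1876 higher), DESeq2 called 145 genes higher. Leaving out 1 tumor gave 6 to 9 members, with 6 tested without tumor 1, 299 to 852 genes lower and 213 to 1618 higher. Corrected counts gave 5 members, 615 lower and 344 higher. Genes called higher were 3125 with cells named from their own markers, 3147 with at least 30 cells per sum and 999 with tumor-like cells free of leukocyte UMIs.

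Against stromal classes (9 members, 1916 lower, 894 higher), DESeq2 called 192 higher. Leaving out 1 tumor gave 3 to 6 members, 830 to 1063 lower and 352 to 576 higher. Corrected counts gave 2, 743 and 143. Clusters made within each tumor gave 5 members and 80 higher, with Nlrc5 at -0.20, and cells named from their own markers gave 1989 higher.

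Between immune and stromal classes (1 member higher, 1510 lower, 372 higher), the replicate block gave 6 members and 826 genes higher. Leaving out 1 tumor gave 0 to 1 members, 486 to 1359 lower and 95 to 472 higher. Corrected counts gave 0 members, 679 lower and 201 higher. Members called higher by edgeR were 0 at resolution 0.5, 2 at resolution 2, 0 with clusters within each tumor (104 genes higher), 3 with cells named from their own markers, 3 with at least 30 cells (697 genes higher) and 0 without leukocyte UMIs. For these counts of 0, edgeR gave 1 member at an unadjusted p under 0.05 without tumor 1, 4 at resolution 0.5 and 0 with corrected counts, clusters within each tumor or no leukocyte UMIs. B2m, at -0.054 to 0.73 when 1 tumor was left out, reversed without tumor 1, Tap2 with corrected counts (-0.18) and Tapbp at resolution 2 (0.10) and with at least 30 cells (0.41).

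Pairs of gene and class called lower (66) numbered 16 to 36 when 1 tumor was left out and 22 with corrected counts, and 82 with the replicate block. Shares over all genes were not counted for these totals. Without thinning, the mean over tumors of the share of macrophage-like cells with a UMI of a member was 91.9%, and 905 of all 941 such cells (96.2%) held one. With corrected counts the mean over tumors of the level left in tumor-like cells was 9.67% for the 10 genes and 8.86% for leukocyte-restricted genes, against 6.48% and 2.12%, with the order of the medians turned in tumor 1. Spearman's rho kept 1 of the 10 genes most like the members. The replicate block changed no other call against the immune or stromal mean. Leaving out cluster 6 and cells with leukocyte UMIs were chosen after seeing the data.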
